A study of Canis lupus familiaris with 13 samples.

Results

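The genes described here mark how T cells are programmed and co-stimulated, and were followed through 13 tumor biopsies of companion dogs given IMAX, a complex of a polyethyleneimine–lithocholic acid conjugate with paclitaxel and a cyclic dinucleotide that is injected into the tumor. The 9 genes were the rows of the deposited count table with the symbols TBX21, EOMES, FOXP3, BCL6, TCF7, IL2RA, ICOS, TNFRSF4 and TNFRSF9, all of them found among 43427 symbols. All 9 were among the 20118 genes that passed the filter on low counts and were tested. They were chosen by name for their known roles, with earlier results of these data already known. Shares of all genes printed beside their counts are therefore a description.

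The biopsies came from 4 tumors of 3 pet dogs with naturally occurring disease. Dog RV had a soft tissue sarcoma, dog CL had a cranial and a caudal mammary tumor, and dog BM had a mass of a left mammary gland. Before treatment each tumor gave 1 library (4 in all). The early group (4 libraries) was taken after the second dose, at 2 days in RV and 1 week in both CL tumors and BM. The late group (5 libraries) was taken at 2 weeks after the third dose in RV, 1 library at the injection site and 1 next to it, and after the second dose at 1 month in CL and 3 weeks in BM. There was no untreated dog, so time, repeated biopsy and treatment cannot be told apart, and both CL tumors shared a host. RV was of mixed breed, CL a Shih Tzu and BM a Great Pyrenees, all of them adult females. Total counts on genes ranged from 11622444 to 29931125 per library.

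The labelled tissues were checked against marker genes on the mean log2 CPM scale (CPM, counts per 1000000 counts of the library after TMM scaling). The 5 epithelial genes (EPCAM, CDH1 and keratins) ranged from 1.96 to 3.98 in the 4 RV libraries and from 4.72 to 9.57 in the 9 mammary libraries. Some libraries stood apart. RV early had the highest neutrophil marker level (7.63, against 0.18 to 4.60 elsewhere) and the highest epidermis marker level (8.56). Its mesenchyme level was 7.67, against 10.78 in RV before, 10.42 at the late injection site and 11.18 at the late adjacent site. The paper's histology of RV at that time found no definite tumor cells in the sections examined. Early RV ratios therefore compare biopsies of unlike tissue make-up. BM late had the highest mesenchyme level (12.27) with an epithelial level of 4.72, where that mass had measured 8.93 before treatment. The mesenchyme level of BM was 6.93 before and already 10.75 early. Early and late BM ratios therefore also compare biopsies of unlike tissue make-up. The summed CPM of 6 T cell genes (CD3D, CD3E, CD3G, CD247, CD2 and CD5) was 21.5 to 48.0 before, 35.6 to 196 early and 45.2 to 120 late, and the 9 genes were later also expressed relative to these T cell genes.

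TBX21, EOMES, FOXP3, BCL6 and TCF7 are transcription factors. TBX21 encodes T-bet, which drives T helper 1 cells, and EOMES encodes eomesodermin, its relative in cytotoxic T cells and natural killer cells. FOXP3 defines regulatory T cells, BCL6 drives follicular helper T cells and germinal center B cells, and TCF7 encodes TCF1, which keeps naive and stem-like memory T cells and is also a partner of beta-catenin in Wnt signaling outside T cells. IL2RA, ICOS, TNFRSF4 and TNFRSF9 are surface receptors: the high-affinity interleukin-2 receptor chain CD25, the inducible costimulator of the CD28 family, and the TNF receptor family members OX40 and 4-1BB. T cells other than regulatory T cells carry little of these receptors at rest and more after antigen contact.

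In the RefSeq annotation of the dog assembly UU_Cfam_GSD_1.0 (all 9 symbols matched), the transcription factor genes lie at chr9:24027863-24039741 (TBX21), chr23:16774662-16810661 (EOMES), chrX:42552106-42558755 (FOXP3), chr34:20295606-20306970 (BCL6) and chr11:22321753-22354875 (TCF7). The receptor genes lie at chr2:28928272-28977130 (IL2RA), chr37:12571149-12591783 (ICOS), chr5:56877316-56880258 (TNFRSF4) and chr5:62032740-62045771 (TNFRSF9). These spans are whole genes with their introns and UTRs. Transcript lengths were not used, so levels are compared between libraries and not between genes.

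The fit estimated all 9 genes higher early than before treatment, with a median log2 fold change of 1.33 against 0.25 over all tested genes. An estimate above 0 was also found for 60.3% of all tested genes. By edgeR's quasi-likelihood test with tumor as a block and Benjamini-Hochberg adjustment over all genes, 0 of 9 passed 0.05 (background 0.00497%). At an unadjusted p under 0.05, 3 of 9 were higher, EOMES, TBX21 and BCL6, against 7.70% of all genes. DESeq2's Wald test, run as an alternative, called 2 of 9 higher, EOMES and TBX21, against 4.13% of all genes with an adjusted p. FOXP3 had no adjusted p in that fit. With tumor as a block, level differences between tumors are removed. These p-values rest on how unevenly the tumors changed over time, across all 13 libraries (7 residual degrees of freedom). That spread includes the difference between both late RV sites of a single mass, and both CL tumors shared a dog.

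**Figure D1:**
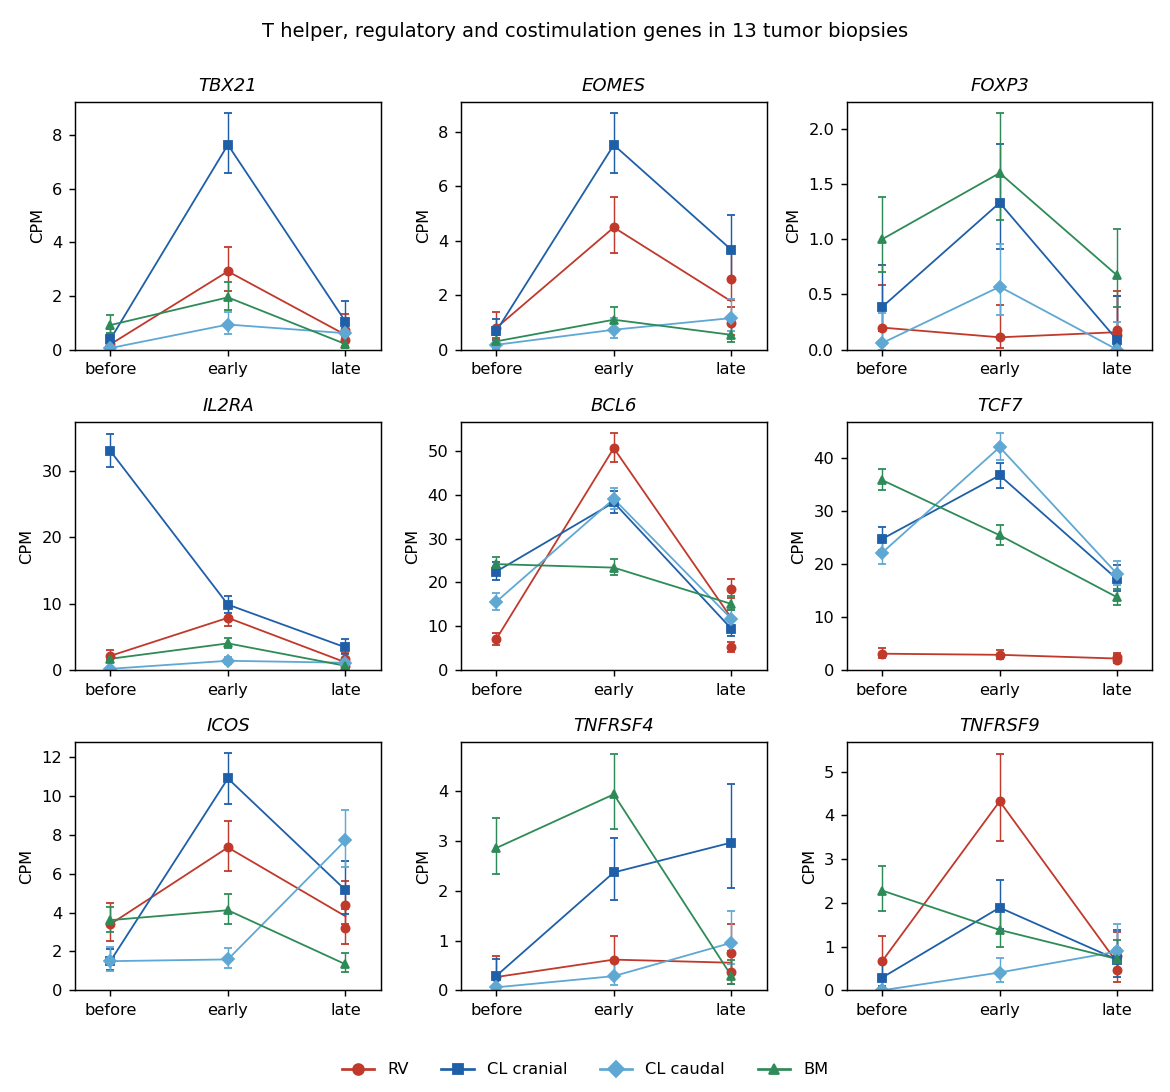
CPM (y axis, linear from 0, separate scale per gene) of the 9 genes before, early and late, with 1 color per tumor and 95% exact counting intervals as bars; lines join the library or, for RV late, the mean of both sites. TBX21 and EOMES were highest in CL cranial early (7.64 and 7.52 CPM), IL2RA was highest in CL cranial before treatment (33.0 CPM), and TCF7 was low in every RV library.

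TBX21 was higher early in each of the 4 tumors. RV, CL cranial, CL caudal and BM measured 0.200, 0.387, 0.0598 and 0.917 CPM before treatment, and 2.92, 7.64, 0.937 and 1.95 CPM early. Late they measured 0.746 (RV injection site), 0.363 (RV adjacent site), 1.05, 0.614 and 0.210 CPM, and the late range overlapped both others. The lowest early library lay just above the highest library before treatment, so the groups did not overlap. Among all tested genes, 2.71% had every early library above every library before treatment, and TBX21 was the 1 of 9 that did. The within-tumor ratio was 14.6 in RV (95% exact counting interval 4.73 to 73.1), 19.7 in CL cranial (9.81 to 46.4) and 2.13 in BM (1.36 to 3.39). In CL caudal, where the library before treatment held a single count, the ratio was 15.7 with an interval from 2.54 to 645. These intervals cover counting error only, since reads are not independent molecules and each tumor had 1 library per time. Group means were 0.391 ± 0.375 CPM before and 3.36 ± 2.96 early (SD, n = 4 each), and the early log2 fold change was 2.95 ± 0.93 (SE; edgeR adjusted p = 0.290). Without the BM library before treatment it was 4.07. With DESeq2 the log2 fold change was 2.93 with an adjusted p of 0.0167, and over 25 alternatives the adjusted p ranged from 0.0167 to 0.741.

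EOMES had the same order of tumors early as TBX21, and its late estimate in each tumor was above its level before treatment. In the order RV, CL cranial, CL caudal and BM, it measured 0.800, 0.678, 0.179 and 0.306 CPM before treatment and 4.49, 7.52, 0.733 and 1.10 early. Each tumor was higher early than before, with ratios from 3.60 in BM (1.76 to 7.94) to 11.1 in CL cranial (6.45 to 20.7), although the early CL caudal library lay within the range of the libraries before treatment. Late it measured 2.58 CPM at the RV injection site, 0.968 at the adjacent site, and 3.67, 1.16 and 0.546 in CL cranial, CL caudal and BM. The late ratio had an interval above 1 at the RV injection site and in both CL tumors (ratios of 3.22 to 6.46), whereas the intervals spanned 1 for BM (ratio 1.79, 0.739 to 4.40) and at the adjacent RV site (1.21, 0.537 to 2.80). The early log2 fold change was 2.44 ± 0.70 (edgeR adjusted p = 0.242). DESeq2 gave 2.46 with an adjusted p of 0.00553, and over 25 alternatives the adjusted p ranged from 0.00553 to 0.728. Late, EOMES was the single gene of the 9 with an unadjusted p under 0.05 in the higher direction (log2 fold change 1.68 ± 0.67, edgeR adjusted p = 0.973), against 1.28% of all genes.

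BCL6 peaked early in 3 of 4 tumors, and its late libraries were all below its early ones. In the same order of tumors, it measured 7.06, 22.5, 15.6 and 24.2 CPM before treatment and 50.7, 38.3, 39.1 and 23.4 early. Late it measured 5.15 at the RV injection site, 18.6 at the adjacent site, and 9.44, 11.7 and 15.1 in the mammary tumors. BM was the exception early, with a ratio of 0.966 (0.872 to 1.07), while RV had the largest ratio, 7.18 (5.87 to 8.87). Among all genes, 4.49% had every late library below every early library, and BCL6 was the 1 of 9 that did. The early log2 fold change was 1.18 ± 0.54 (edgeR adjusted p = 0.457), and it was 0.71 without the RV tumor. From early to late the log2 fold change was -1.66 ± 0.50 (edgeR adjusted p = 0.0815). DESeq2 called it lower (-1.70, adjusted p = 0.00846), as it did 16.9% of all genes. Without the BM early library edgeR called it as well (-1.92, adjusted p = 0.0480, against 6.67% of all genes called lower in that fit). Over 25 alternatives that adjusted p ranged from 0.00846 to 0.289.

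BCL6 is also made by B cells and myeloid cells, and its level moved with markers of other tissue. After subtracting each tumor's mean, its Pearson r over 13 libraries was 0.70 with the mean of 5 neutrophil genes and 0.67 with the epidermis genes, against -0.04 with the T cell genes. RV early, the highest library for BCL6, was also the highest for both of those lists, and the part of either in the BCL6 level was not tested.

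TCF7 was lower in the sarcoma than in the mammary tumors at every time. It measured 3.07 CPM before, 2.86 early, and 1.90 and 2.42 late in RV, whereas in the mammary tumors it lay between 13.7 and 42.0 CPM. All 4 RV libraries were below all 9 mammary libraries, which held for 1 of 9 genes and 1.59% of all tested genes. None of the 9 had all RV libraries above. Before treatment CL cranial, CL caudal and BM measured 24.7, 22.1 and 35.8 CPM, early 36.7, 42.0 and 25.4, and late 17.1, 18.1 and 13.7. The CL tumors were higher early, with ratios of 1.49 (1.33 to 1.66) and 1.90 (1.69 to 2.15), and BM was lower at 0.710 (0.647 to 0.779). The early log2 fold change was 0.22 ± 0.37 (edgeR adjusted p = 0.811) and was -0.03 without CL caudal. From early to late TCF7 was lower in all 4 tumors (-0.89 ± 0.36, edgeR adjusted p = 0.148). DESeq2 called that decrease at an adjusted p of 0.0275, where it called 16.9% of all genes lower. Over 25 alternatives the adjusted p ranged from 0.0275 to 0.364. The epithelial markers separated the same tumors, and their correlation with TCF7 after removing tumor means was 0.62 (13 libraries); their part in the TCF7 level was not tested.

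FOXP3 was close to the detection floor in RV and was detected in all 3 mammary tumors. RV held 3 counts before, 2 early, and 2 and 3 late, so no change could be detected at this depth. CL cranial measured 0.387, 1.33 and 0.0874 CPM before, early and late, CL caudal 0.0598, 0.570 and 0, and BM 1.0, 1.60 and 0.672. The 3 mammary tumors were highest early. The early ratio was 3.43 in CL cranial (1.55 to 8.59) and 1.60 in BM (1.01 to 2.55). For CL caudal, which had 1 count before, it was 9.53 (1.45 to 403). CL caudal late had 0 counts, against 14 in its early library. Taking 3 counts as the floor puts it 2.79-fold lower or more, without allowing for the counting error of the early library. The fitted log2 fold changes were 1.45 ± 0.92 early (edgeR adjusted p = 0.554) and -2.18 ± 0.97 from early to late (edgeR adjusted p = 0.179). The early value was 0.67 without the CL caudal early library. Without BM, FOXP3 did not pass the filter on low counts and was not tested.

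IL2RA was dominated by one library. CL cranial measured 33.0 CPM before treatment (682 counts), 9.85 early and 3.41 late, a ratio of 0.298 early (0.257 to 0.346) and 0.103 late (0.0728 to 0.143). The other 3 tumors went the other way early: RV measured 2.13 before and 7.86 early, CL caudal 0.179 and 1.39, and BM 1.69 and 4.01 CPM. Late, RV measured 1.70 at the injection site and 0.605 at the adjacent site, CL caudal 1.09 and BM 0.630. The group mean before treatment was 9.26 ± 15.9 CPM, so its SD was larger than its mean. The early log2 fold change was 0.74 ± 0.91 (edgeR adjusted p = 0.739), and it was 1.68 without the CL cranial library before treatment. From early to late IL2RA was lower in all 4 tumors (-1.89 ± 0.82, edgeR adjusted p = 0.168). The CL cranial library before treatment also had the highest epithelial marker level (9.57) and a T cell marker level of 1.97, near the lower end of the range of 1.33 to 4.89. Over 13 libraries, with tumor means removed, IL2RA had an r of 0.66 with the epithelial genes and 0.00 with the T cell genes. The part of epithelial RNA in the IL2RA level was not tested.

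ICOS was higher early in RV and CL cranial, and the intervals of its ratio spanned 1 in CL caudal and BM. RV measured 3.40 CPM before and 7.35 early, CL cranial 1.50 and 10.9, CL caudal 1.50 and 1.59, and BM 3.61 and 4.12. All 4 tumors were above their level before treatment, though with DESeq2 size factors the CL caudal change was -0.02 in place of 0.08 on the log2 scale. Late, the tumors split: CL caudal reached 7.71 CPM, its highest value, CL cranial 5.16, RV 4.41 and 3.21, and BM was at its lowest value, 1.34. CL caudal had a late ratio of 5.15 (3.32 to 8.30), whereas BM had one of 0.372 (0.244 to 0.551). The log2 fold change was 1.09 ± 0.77 early (edgeR adjusted p = 0.585) and 0.71 ± 0.76 late (edgeR adjusted p = 0.973), and without the CL caudal late library the late value was -0.10.

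TNFRSF4 showed the same split between CL and BM. CL cranial measured 0.290 CPM before, 2.37 early and 2.97 late, and CL caudal 0.0598, 0.285 and 0.955, where the early ratio rested on 1 count before and spanned 1 (4.77, 0.612 to 215). BM measured 2.86, 3.94 and 0.294, so its late value was lower than before by a ratio of 0.103 (0.0403 to 0.219). RV stayed low throughout, at 0.267 before, 0.617 early, and 0.746 and 0.363 late, and its 3 ratios all had intervals that spanned 1. The log2 fold change was 1.33 ± 1.0 early (edgeR adjusted p = 0.600) and 1.48 ± 1.07 late (edgeR adjusted p = 0.973). The early value was 2.46 without the BM library before treatment, and the late one was 2.50 without BM and 0.25 without the tumor block.

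TNFRSF9 was highest early in RV and CL cranial. RV measured 0.666 CPM before, 4.32 early, and 0.475 and 0.786 late, and CL cranial 0.290, 1.89 and 0.699. CL caudal had 0 counts before treatment and 0.407 CPM early and 0.887 late, at least 2.27-fold and 4.94-fold higher with 3 counts as the floor. The exact 95% lower limits of the same ratios, which allow for the counting error of the later library too, were 1.53 and 3.48. BM was lower at each later time, at 2.28, 1.38 and 0.714 CPM, with ratios to the library before treatment of 0.608 (0.404 to 0.900) and 0.313 (0.174 to 0.533). The early log2 fold change was 1.72 ± 1.12 (edgeR adjusted p = 0.562). Without the RV early library it was 0.93.

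**Figure D2:**
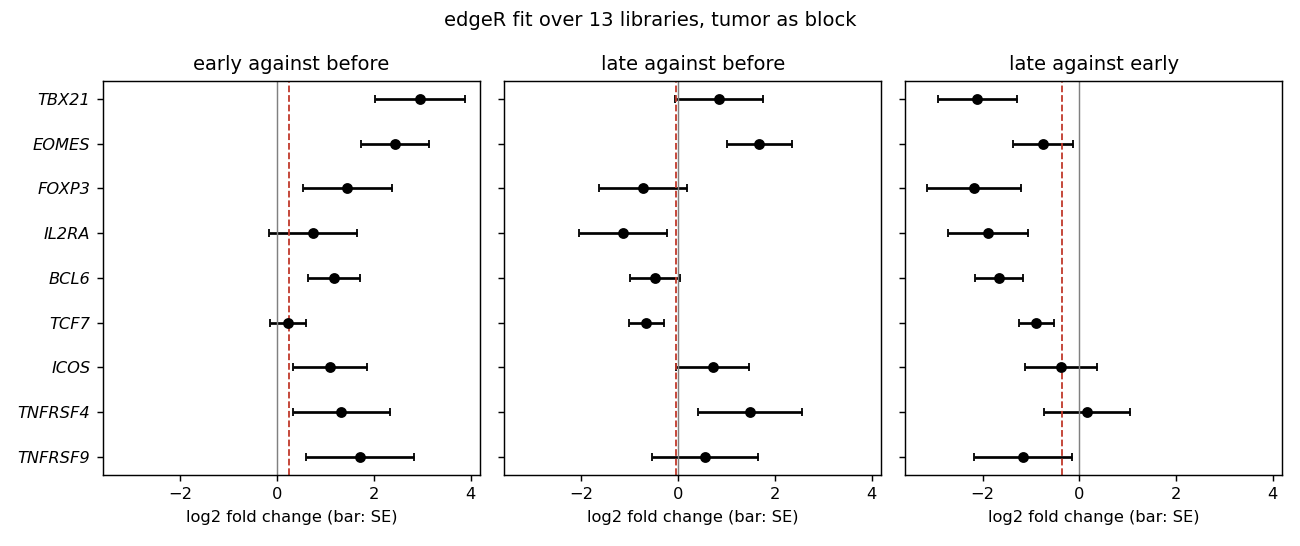
Fitted log2 fold change (x axis) of the 9 genes in 3 comparisons, with bars of 1 SE derived from the F statistic. The dashed line is the median of all 20118 tested genes. All 9 estimates lie above 0 early (0.22 to 2.95), and from early to late 1 of 9, TNFRSF4 (0.15), lies above 0.

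Counted over tumors, 4 of 9 genes were higher early in all 4 tumors (TBX21, EOMES, ICOS and TNFRSF4), against 10.8% of all tested genes, and 3 of 9 with DESeq2 size factors. This count goes by direction only. The interval of the early ratio was above 1 in all 4 tumors for TBX21 and EOMES, but spanned 1 in 2 of them for ICOS and for TNFRSF4. Tumor by tumor, the genes higher early numbered 9 of 9 for CL caudal, 8 for CL cranial, 7 for RV and 6 for BM, where 49.1% to 54.5% of all genes were higher. Late, EOMES was the 1 of 9 that was higher in all 4 tumors (background 7.13%), with within-tumor log2 changes of 0.91 (RV), 2.28 (CL cranial), 2.18 (CL caudal) and 0.67 (BM). TCF7 and FOXP3 were lower late in all 4 tumors (2 of 9, background 8.04%), the latter at 3 counts or fewer in RV and late in both CL tumors.

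Late against before, the 9 genes had no common direction. The fit put 5 of 9 above 0, against 46.9% of all genes, and their median log2 fold change was 0.55 against -0.05 over all genes. By edgeR 0 of 9 passed the threshold, as did 0% of all genes, and DESeq2 also called 0 of 9. BM differed from the other tumors in count: 1 of 9 genes was higher late there, against 5 in RV, 5 in CL cranial and 6 in CL caudal, a difference that was not tested. Of all tested genes, 46.6% to 51.1% were higher late in each tumor. The BM libraries carry a different style of library name from all others. The BM late biopsy had the highest mesenchyme level (12.27), after 6.93 before and 10.75 early in that mass. The part of either in the lower values was not tested.

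From early to late, the fit put 1 of 9 above 0, against 38.8% of all genes, with a median log2 fold change of -1.17 against -0.35. By edgeR 0 of 9 passed the threshold (background 0.00994%). At an unadjusted p under 0.05, 5 of 9 were lower, namely BCL6, TBX21, TCF7, IL2RA and FOXP3, where 17.7% of all genes were lower. The value for TBX21 was -2.11 ± 0.82 (edgeR adjusted p = 0.134). IL2RA, TBX21, BCL6 and TCF7 were lower in all 4 tumors (4 of 9, background 17.4%). DESeq2 called 3 of 9 lower, BCL6, TBX21 and TCF7, against 16.9% of all genes; its adjusted p for TBX21 was 0.0321, with a range of 0.0321 to 0.363 over 25 alternatives.

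The late RV sites were compared with each other as 2 libraries of a single mass. The injection site held less BCL6 than the adjacent site (ratio 0.278, 95% exact counting interval 0.213 to 0.358). It held more IL2RA (2.80, 1.30 to 6.54) and more EOMES (2.66, 1.45 to 5.12). The other 6 genes had intervals that spanned 1, from 0.604 for TNFRSF9 to 2.06 for TBX21 and TNFRSF4. These ratios compare libraries and have no replicate check.

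In a bulk biopsy, fewer cells of a type and less RNA per cell cannot be told apart. Each gene was therefore also expressed relative to the mean log2 CPM of the 6 T cell genes, and the change of this difference was taken within each tumor. EOMES was higher relative to the T cell genes in 4 of 4 tumors, by 0.88 ± 0.86 early and 0.35 ± 0.24 late (mean ± SD, log2). TCF7 was lower in 4 of 4 tumors, by -1.09 ± 1.12 early and -1.83 ± 0.83 late, and its early value in CL caudal was -0.01. TCF7 itself rose early in both CL masses (log2 0.57 cranial, 0.93 caudal). It fell in RV (-0.10) and BM (-0.49), and late it was lower in all 4 tumors. Its r with the T cell genes was -0.01, and their CL cranial mean went from 1.97 before to 4.89 early. The TCF7 differences thus also carry the change of the T cell genes. Less TCF7 RNA per T cell was not tested. FOXP3 was lower late in 4 of 4, by -1.86 ± 1.49, with RV and the late CL libraries at 3 counts or fewer. Each of these has an exact two-sided sign-flip p of 0.125, the smallest that 4 tumors allow, and an adjusted p of 0.450 over 18 tests. TBX21 was higher relative to the T cell genes early in 3 of 4 tumors (RV 3.14, CL cranial 1.07, CL caudal 1.78, BM -0.21). When CD3E or CD2 alone stood for the T cells, 0 of 9 genes were higher in all 4 tumors at either time.

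**Figure D3:**
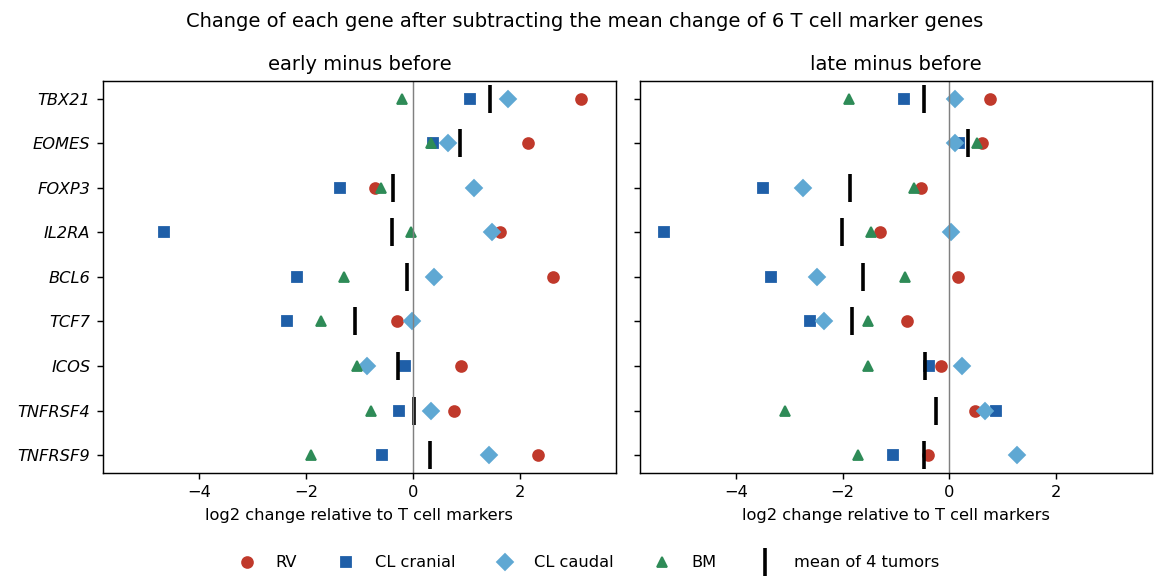
Change from before treatment in log2 CPM minus the mean change of 6 T cell genes (x axis), early and late, with 1 point per tumor and a vertical tick at the mean of 4 tumors. EOMES lies above 0 in all 4 tumors at both times, TCF7 lies at or below 0 (-2.62 to -0.01), and IL2RA in CL cranial lies farthest to the left (-4.66 early and -5.34 late).

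Across the 13 libraries, with each tumor's mean removed, 5 of the 9 genes had a Pearson r of at least 0.60 with the T cell genes. It was 0.87 for EOMES, 0.85 for ICOS, 0.79 for TNFRSF4, 0.71 for TBX21 and 0.60 for TNFRSF9. For FOXP3, IL2RA, TCF7 and BCL6 it lay between -0.04 and 0.12. The libraries share tumors, depth and tissue composition, so these values are a description of 13 points that are not independent. Within the list, the closest pairs were ICOS with TNFRSF4 (0.87), TBX21 with EOMES (0.86), TBX21 with TNFRSF9 (0.83) and FOXP3 with TCF7 (0.80). Each of these 5 genes was at least as close to another marker list. With the B cell genes r was 0.95 for TNFRSF4, 0.87 for ICOS, 0.73 for TBX21 and 0.70 for TNFRSF9, and with 5 natural killer genes it was 0.88 for EOMES and 0.75 for TBX21. TNFRSF9 was also at 0.63 with the epidermis and 0.62 with the neutrophil genes. The part of these cells in the levels was not tested.

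**Figure D4:**
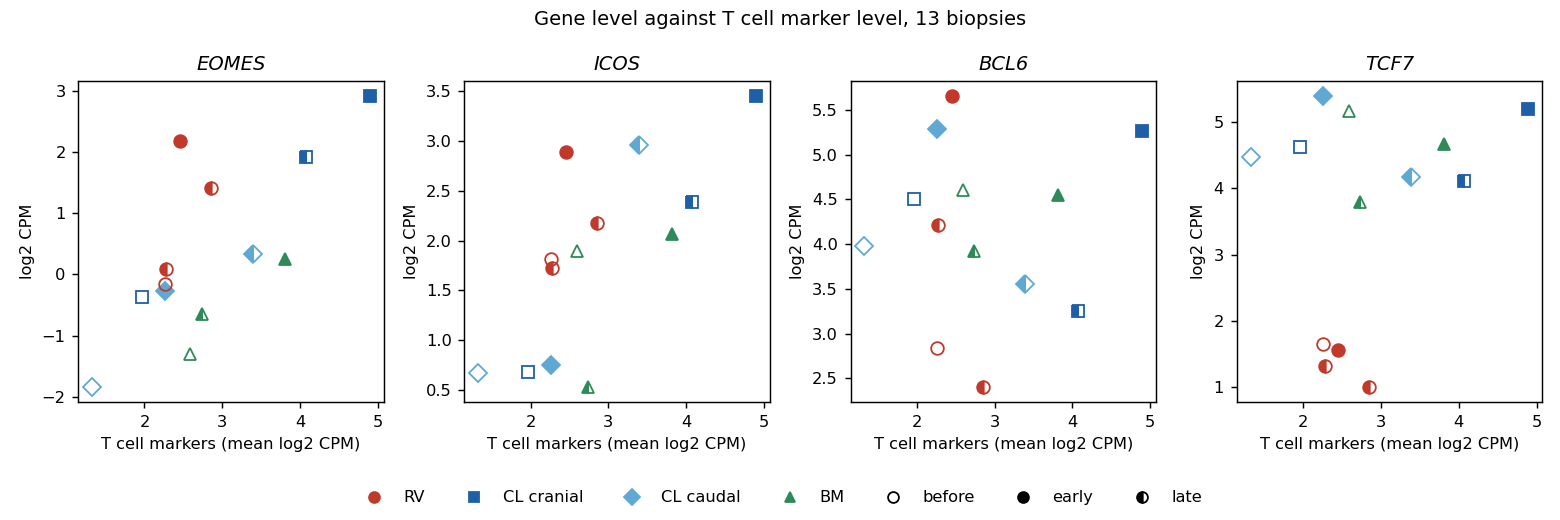
Log2 CPM of EOMES, ICOS, BCL6 and TCF7 (y axes) against the mean log2 CPM of 6 T cell genes (x axis) in 13 biopsies, with color and shape for the tumor and fill for the time. EOMES and ICOS are highest where the T cell genes are highest, in CL cranial early (4.89), whereas TCF7 splits into 4 low RV points and 9 mammary points.

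For each gene, the 3 tested genes with the highest Pearson r over the same 13 tumor-centered libraries were named. ICOS was closest to TIGIT (0.96), NLRC3 (0.94) and CTLA4 (0.94), and TNFRSF4 to LOC612173 (0.93), CTLA4 (0.91) and IL12RB2 (0.91). TIGIT and CTLA4 are inhibitory receptors of T cells. TNFRSF9 was closest to CD96 (0.97), KLRG2 (0.96) and SLAMF1 (0.94), and EOMES to IL21R (0.96), SUCNR1 (0.94) and LOC100687459 (0.94). TBX21 was closest to LOC102154051 (0.96), ETV3L (0.96) and ITGB7 (0.94), a gut-homing integrin chain. IL2RA had CISH, a suppressor of cytokine signaling, at 0.91, beside C17H1orf56 (0.93) and ARHGEF10L (0.90). BCL6 was closest to FITM1 (0.98), TRAFD1 (0.97) and LOC111095592 (0.96), TCF7 to NCCRP1 (0.96), LOC111093071 (0.93) and IL1RL1 (0.93), and FOXP3 to LOXL4 (0.96), TNS1 (0.95) and LOC111097086 (0.95). FOXP3 had 3 counts or fewer in every RV library, in CL caudal before and late, and in CL cranial late. There the prior count largely sets its log2 CPM. All these neighbors were picked as the highest among 20118 tested genes, so their r is high by selection.

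The direct partners of the receptors, 9 genes listed by name, were then examined. IL2, the cytokine itself, had 0 to 12 counts per library and was not tested. The other 8 all had early estimates above 0, against 60.3% of all genes, and 5 of them had an unadjusted p under 0.05, against 7.70% of all genes. None (0 of 8) passed the adjusted threshold. IL2RG, the common gamma chain, measured 1.73, 1.74, 0.359 and 5.39 CPM before and 55.5, 29.4, 2.20 and 12.6 early, again in the order RV, CL cranial, CL caudal and BM. It was higher in all 4 tumors (log2 fold change 3.45 ± 0.78, edgeR adjusted p = 0.154). Its highest library, RV early, also had the highest neutrophil marker level (7.63). The T cell marker level of RV was 2.26 before and 2.45 early. The part of these cells in the IL2RG level was not tested. IL2RB measured 2.0, 2.03, 0.359 and 5.17 CPM before and 1.68, 24.3, 2.32 and 7.99 early, so RV was the tumor without an increase (1.81 ± 0.84, edgeR adjusted p = 0.463).

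TNFSF4, the ligand of OX40, measured 0.133, 0.145, 0.120 and 0.444 CPM before and 5.11, 1.21, 0.448 and 4.93 early in the same order. Its 4 early CPM values all lay above its 4 values before treatment, by a narrow margin (0.448 CPM in CL caudal early against 0.444 in BM before), as held for 2.71% of all genes (log2 fold change 3.53 ± 0.94, edgeR adjusted p = 0.207). Late it lay between 0.0874 CPM in CL cranial and 0.847 CPM at the adjacent RV site. The other ligands were TNFSF9 for 4-1BB (1.77 ± 0.82, edgeR adjusted p = 0.463) and ICOSLG for ICOS (1.67 ± 0.54, edgeR adjusted p = 0.299). ICOSLG measured 3.0, 17.9, 2.27 and 7.47 CPM before and 14.2, 19.7, 11.9 and 33.1 early. Among the CD28 axis, CD28 itself was at 1.98 ± 0.81 (edgeR adjusted p = 0.422), CD86 at 1.74 ± 0.61 (0.350) and CD80 at 0.93 ± 0.56 (0.543). CD80 and CD86 were lower early than before in CL caudal, at 25.1 against 66.8 CPM and 116 against 171 CPM. From early to late 0 of 8 had an estimate above 0, against 38.8% of all genes. At an unadjusted p under 0.05, 3 were lower (IL2RG -2.98, TNFSF4 -2.56 and ICOSLG -1.35), against 17.7% of all genes. The macrophage markers, whose cells carry CD80, CD86 and ICOSLG, summed to 196 to 458 CPM before, 825 to 2458 early and 240 to 1041 late, and their part in the ligand levels was not tested.

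**Figure D5:**
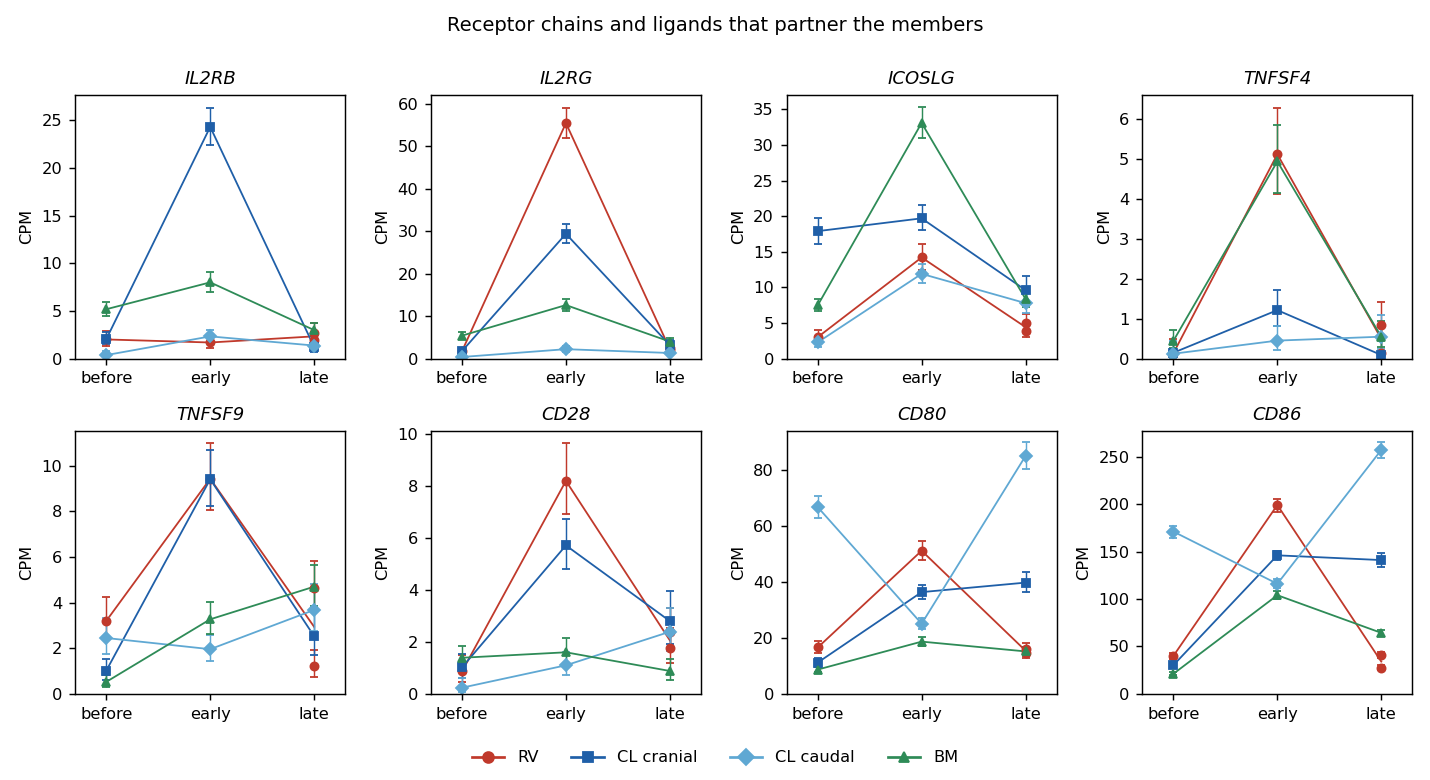
CPM (y axis, linear from 0, separate scale per gene) of 8 receptor chains and ligands before, early and late, with 1 color per tumor and 95% exact counting intervals. IL2RG reached 55.5 CPM in RV early and 29.4 in CL cranial early, and late it lay between 1.30 and 3.99 CPM.

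Wider lists of the same biology had mostly positive estimates early, with 0 genes past the adjusted threshold in any list by edgeR. Of 23 tested T helper lineage and subset genes, 22 had an early estimate above 0 and 8 an unadjusted p under 0.05, with a median log2 fold change of 1.20, where 60.3% of all genes were above 0 and 7.70% were higher at that p. BATF, a factor of activated T cells, was at 2.66. Of 15 regulatory T cell genes, 11 were above 0 and 5 at an unadjusted p under 0.05 (median 1.38), with TNFRSF1B the smallest p (log2 fold change 2.86). Of 24 costimulation receptors and ligands, 23 were above 0 and 11 at an unadjusted p under 0.05 (median 1.66), where TNFRSF14 (1.90) and CD40 (1.55) had the smallest p. Of 11 naive and memory T cell genes, 8 were above 0 and 4 at an unadjusted p under 0.05 (median 0.87), IL7R having the smallest p (3.27). All 15 effector and exhaustion genes were above 0 early and 4 had an unadjusted p under 0.05 (median 1.43). The median over all genes was 0.25. These lists share members with each other and with the T cell genes, of which 6 of 6 were above 0 early and 3 had an unadjusted p under 0.05.

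Late against before, all 15 effector and exhaustion genes were again above 0 and 6 had an unadjusted p under 0.05 in the higher direction, with a median of 1.15 that was below their early one. For the 9 genes the corresponding counts were 5 and 1, and over all genes 46.9% were above 0 and 1.28% higher at that p. GZMB, a cytotoxic granule protease, was at 2.59 ± 0.55 early (edgeR adjusted p = 0.142) and 2.08 ± 0.52 late (edgeR adjusted p = 0.973), and GZMA at 2.81 ± 0.80 late (edgeR adjusted p = 0.973). Of the T helper genes 17 of 23 were above 0 late (median 0.13), of the regulatory T cell genes 13 of 15 (0.52), of the costimulation genes 19 of 24 (0.67) and of the naive and memory genes 7 of 11 (0.31). Each of these 4 lists held 1 gene at an unadjusted p under 0.05 in the higher direction. From early to late the counts at an unadjusted p under 0.05 in the lower direction were 7 of 23 T helper genes, 5 of 15 regulatory, 3 of 24 costimulation, 4 of 11 naive and memory, and 1 of 15 effector and exhaustion genes, beside 17.7% of all genes. TNFRSF1B, a receptor for TNF found on regulatory T cells and myeloid cells, had the smallest p of the regulatory list, at -2.74 ± 0.50 (edgeR adjusted p = 0.0603).

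The markers of T cell classes themselves were uneven between tumors. CD4 and CD40LG together summed to 3.73 to 11.5 CPM before, 3.54 to 517 early and 3.40 to 12.9 late. The highest was RV early, the library with the highest neutrophil markers, and dog neutrophils also carry CD4, so this sum was not used to scale any gene. CD8A and CD8B summed to 1.02 to 4.93 CPM before, 1.52 to 20.5 early and 3.45 to 15.0 late. The B cell markers summed to 1.67 to 15.6, 4.16 to 38.0 and 5.81 to 28.6 CPM in the same order.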

How the data were processed

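Strand-specific RNA-seq libraries were made from 13 tumor biopsies. CanFam4.0 was the build and Strand NGS the aligner the authors used, and the deposited values are raw read counts for each symbol. The counting rule and annotation release are not given in the sources used here, and reads shared by overlapping genes or paralogs could be split. The submitters' processing notes name edgeR.

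Groups came from the labels. Low counts were removed by filterByExpr (time group, minimum count 10), which left 20118 of 43427 symbols, scaled by TMM and fitted with glmQLFit (robust) and glmQLFTest in edgeR 4.0.16 (R 4.3.3), with tumor and time group as factors (7 residual degrees of freedom) and Benjamini-Hochberg adjustment at 0.05. CPM used TMM effective library sizes, and log2 CPM a prior count of 2. The SE of an edgeR log2 fold change was derived, as the absolute change divided by the square root of the F statistic. It is therefore approximate. DESeq2 1.42.0 was an alternative. Intervals are exact at 95% and, with the 3-count floor, cover counting error only. At the depth of 11622444 to 29931125 counts per library, 3 counts is the detection limit used. The block comes from the tumor: libraries of 1 tumor are biopsies of the same mass, and their deviations from the group means correlated at a mean of 0.59 between late and before (0.32 to 0.77), 0.23 between early and before (-0.05 to 0.48) and 0.19 between late and early (-0.1 to 0.45). No library was a copy of another (smallest chi-square over degrees of freedom between libraries, 44.5).

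The 9 genes and all lists were chosen with earlier results of these data known. Named genes were the 9, their direct partners, at most 2 genes per other list and comparison by smallest p, and for each of the 9 the 3 genes with the highest correlation. RORA, TRAF1 and CLEC9A are not analysed here. No sequences are shown, since no sequence was used here. The fit was tested on simulated data made like early against before, with 200 genes planted at a log2 fold change of 3 in either direction. Of these, 108 of 200 were recovered at the observed coefficient of variation (0.672) and 200 at 0.2. Planted genes were drawn only from genes with a higher mean CPM than most of the 9 genes have. The recovered share therefore does not carry over to those lower genes. Summaries and figures used scipy 1.17.1, pandas 2.3.3, matplotlib 3.10.9 and numpy 2.4.6 under Python 3.11.15.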

Additional observations from a re-analysis of the deposited data

Results flagged for a closer look

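BCL6 late against before differed in direction between the sarcoma and the mammary tumors: the change was 0.47 in RV (mean of both sites, log2) and -1.25 to -0.41 in the 3 mammary tumors. The difference was not tested. The RV value averages an injection site at 5.15 CPM and an adjacent site at 18.6 CPM, which lie on either side of the 7.06 CPM before treatment. It was the single result of this kind among 18 changes compared. On the log2 CPM scale, 0 of 27 groups of 4 or 5 libraries held a library apart from the rest by Dixon's criterion, where chance gives about 1.35. On the linear CPM scale 4 of 27 did, each with a single high library. IL2RA before treatment was 33.0 CPM in CL cranial against 0.179 to 2.13 in the others. TNFRSF4 was 2.86 CPM in BM before treatment against 0.0598 to 0.290, and 2.97 CPM in CL cranial late against 0.294 to 0.955. FOXP3 late was 0.672 CPM in BM against 0 to 0.181.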

How the results depend on the processing

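Of 671 alternative values of the 9 genes' log2 fold changes, 644 kept their direction and their side of the threshold, 21 changed direction, 6 newly passed and 0 lost significance. Without the tumor block, IL2RA early was -0.68, TNFRSF9 late against before -0.20 and TNFRSF4 late against early -0.77. With the dog as block IL2RA early was -0.06 and TNFRSF4 late against early -0.06. With CL tumors summed TNFRSF9 late was -0.12 and TNFRSF4 late against early -0.34, and with only the compared groups the latter was -0.35. DESeq2 called 2 of 9 higher early, against 4.13% of all genes with an adjusted p. From early to late it called 3 of 9 lower, against 16.9% of all genes. By edgeR 0 of 9 were called in either comparison, against 0.00497% and 0.00994% of all genes. Over the fits that leave out a library or tumor, TCF7 early ranged from -0.03 to 0.46, TNFRSF9 late against before from -0.45 to 1.61, ICOS late against before from -0.10 to 1.30, ICOS late against early from -1.11 to 0.10 and TNFRSF4 late against early from -0.54 to 0.68. The number called from early to late ranged from 0 to 1. That 1 was BCL6 without the BM early library, a fit that called 6.67% of all genes lower. Relative to CD3E alone or CD2 alone, 0 genes were higher in all 4 tumors, early and late, against 1 relative to the 6 T cell genes. The cause of these differences was not tested. Single libraries per tumor and time, and low counts of FOXP3, TNFRSF4 and TNFRSF9, limit what can be seen.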
